A study of Mus musculus with 6 samples.

Results

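The Wnt ligands, receptors and antagonists, with the core of the beta-catenin branch, made up 46 of the 54532 genes of the deposited table. They were the protein-coding rows whose symbol begins with Wnt, Fzd, Dkk or Sfrp and a digit, together with Lrp5, Lrp6, Axin1, Axin2, Ctnnb1, Lef1, Tcf7, Tcf7l1 and Tcf7l2. The set held 19 ligands, 10 Frizzled receptors, 2 co-receptors, 8 secreted antagonists (the Dkk and Sfrp genes), 2 Axin scaffolds, beta-catenin itself and 4 TCF/LEF transcription factors. The values are FPKM, fragments scaled to gene length and library size, so levels can be compared between genes.

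Total RNA labelled as mouse lung was sequenced in 6 libraries, 3 labelled young (mice of 3 months) and 3 labelled aged (mice of 18 months). No transgene, deletion or treatment is named for either group, and the sources used here give neither strain nor sex. They do not say that each library had its own mouse, so p-values measure the spread between libraries, which may be technical. Between 16649061 and 17456715 whole reads per library were recovered from the FPKM values. Reads were paired and FPKM counts fragments, so a read in the counts below stands for a fragment.

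The tissue label was checked against marker lists of alveolar type 1 and type 2, club, ciliated, endothelial cells and leukocytes. Of these 43 markers, 32 were at or under 1 FPKM in all 6 libraries, and 5 were at or above 10 FPKM in all of them (Napsa, Aqp5, Pdpn, Cav1 and Emp2). Sftpc, the surfactant protein C gene, had 4 reads in total. Col1a1, a fibroblast collagen gene, lay between 153 and 251 FPKM. Of the 11 fibroblast and mesenchymal markers, 6 were at or above 10 FPKM in every library. The other 5 (Dcn, Lum, Tcf21, Thy1 and Acta2) were at or under 1 FPKM throughout. All 5 proliferation markers were at or above 10 FPKM in every library. The contents therefore go against the tissue label, and “young” and “aged” below are only the labels of the libraries. Transcripts of kidney tubule stood out in 2 libraries: the 10 tubule markers summed to 135 FPKM in young replicate 1 and to 27.5 FPKM in young replicate 3, against 1.55 in young replicate 2 and 2.39 to 3.29 in the aged libraries. Kap, an androgen-regulated kidney gene, carried most of it, at up to 116 FPKM. Where a named gene's call was lost without these 2 libraries, that is said beside it.

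Wnt proteins are secreted, lipid-modified signals. They bind a Frizzled receptor together with Lrp5 or Lrp6, which draws Axin to the membrane and halts the complex that marks beta-catenin for destruction. Beta-catenin then enters the nucleus and acts with TCF/LEF factors, and Axin2 and Lef1 are among the genes it commonly induces. Sfrp proteins bind Wnt ligands outside the cell, while Dkk proteins of the Dkk1 type bind the Lrp co-receptors. In the lung the pathway is known for its part in epithelial branching and in the renewal of alveolar type 2 cells.

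Only 13 of the 46 members reached the filter for testing, which was 0.5 FPKM in at least 3 of the 6 libraries. These were Wnt10b, Wnt5b and Wnt10a among the ligands, Fzd7, Fzd4 and Fzd5 among the receptors, both co-receptors, Dkk3, Axin1, Ctnnb1, Tcf7l1 and Tcf7l2. Limma called 10 of them at an adjusted p under 0.05, 4 higher and 6 lower in the aged libraries. Dkk3, among those called higher, reached the filter only through the aged libraries. Over all 15197 tested genes, 60% were called, 27.7% higher and 32.3% lower. The 10 called members were also those whose groups did not overlap, as was the case for 66.9% of all tested genes (31.3% higher and 35.6% lower). After centring each library on its median, 4 members were called higher and 4 lower, and the balance over all tested genes turned, from 4212 higher and 4903 lower to 4988 higher and 4026 lower. The median log2 fold change of the 13 was -0.09, against -0.03 over all tested genes. Without young replicates 1 and 3, 3 members were called higher and 3 lower, and 2938 and 3296 of all tested genes, with the remaining young library assumed to vary like the others. In bulk RNA, fewer cells of a type and less RNA per cell cannot be told apart. Marker sums also moved between the groups without overlap: alveolar type 1 markers summed to 286 to 291 FPKM in young and 430 to 443 FPKM in aged libraries, with 3 of the 9 at or under 1 FPKM throughout. Leukocyte markers summed to 6.72 to 8.32 and 16.7 to 18.2 FPKM, with 8 of the 9 at or under 1 FPKM. Mesothelial markers summed to 56.9 to 61.9 and 81.4 to 89.1 FPKM, nearly all of it Msln, with 3 of the 4 at or under 1 FPKM. Fibroblast markers summed to 1168 to 1197 and 924 to 961 FPKM, with 5 of the 11 at or under 1 FPKM. Proliferation markers, all 5 at or above 10 FPKM in every library, summed to 293 to 301 and 336 to 351 FPKM. Sums of alveolar type 2, club, ciliated and endothelial markers were also higher in the aged libraries without overlap, and those of smooth muscle lower. The alveolar type 2 groups nearly met. The part of these marker differences in the changes of the members was not tested.

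**Figure D1:**
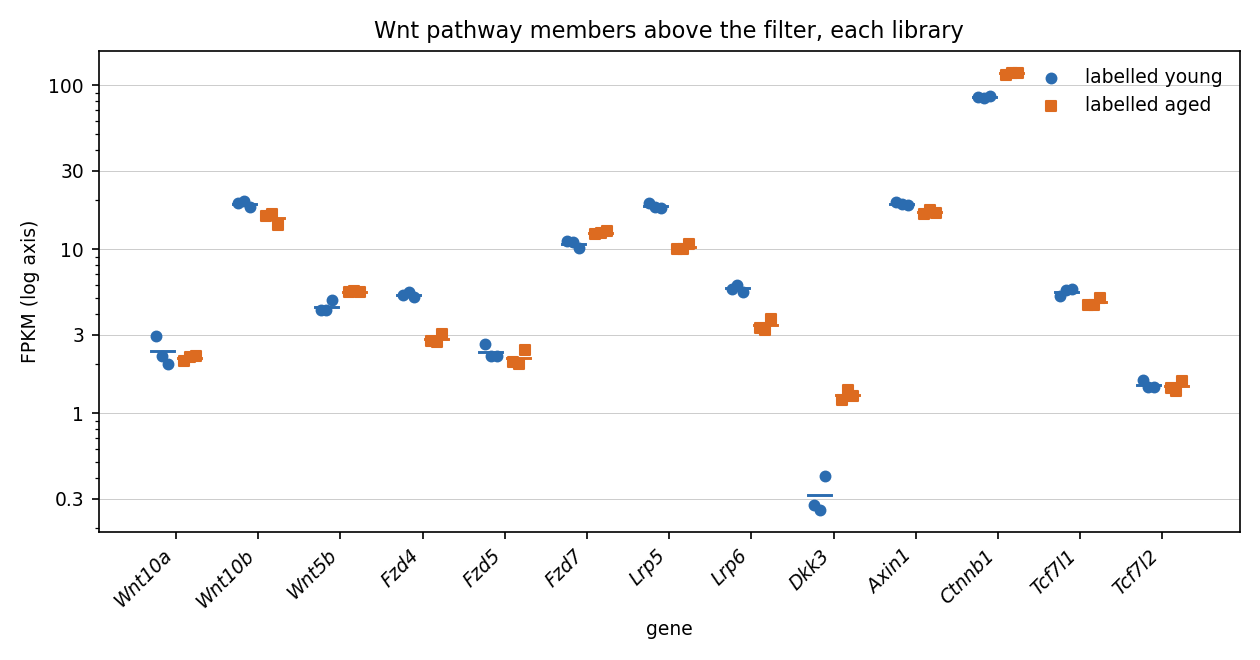
FPKM of the 13 tested members (log axis) in each of the 6 libraries, with circles for labelled young, squares for labelled aged and a bar at each group mean. Ctnnb1 is the most abundant member, and the groups separate most widely for Dkk3, Lrp5, Lrp6 and Fzd4.

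Beta-catenin was the most abundant member, followed by components that act before it in the pathway. In the young libraries, Ctnnb1 stood at 84.6 ± 0.907 FPKM (SD, n = 3, as for all means below), followed by Wnt10b at 18.9 ± 0.813, Axin1 at 18.8 ± 0.402 and Lrp5 at 18.3 ± 0.627 FPKM. The last 3 levels lay within each other's spread. In the aged libraries the order below Ctnnb1 was Axin1 (16.7 ± 0.482 FPKM), Wnt10b (15.5 ± 1.24), Fzd7 (12.6 ± 0.207) and Lrp5 (10.3 ± 0.441), where Axin1 and Wnt10b lay close together, with Axin1 between 16.4 and 17.3 and Wnt10b between 14.1 and 16.4 FPKM, and Lrp5 was below Fzd7 in every library.

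Among the ligands, Wnt10b supplied most of the transcript and fell, while Wnt5b rose. Wnt10b, a ligand that commonly signals through beta-catenin (chromosome 15, 98770712 to 98778150, minus strand, mm10), measured 18.97, 19.7 and 18.1 FPKM in the young libraries and 15.9, 16.4 and 14.1 FPKM in the aged ones. All 3 aged values lay below all 3 young values, a 1.22-fold difference of means (a log2 fold change of -0.28 with SE 0.06 on the log2(FPKM + 1) scale used throughout, adjusted p = 0.00807 by limma). This call was not reached when young replicates 1 and 3 were left out (limma adjusted p = 0.0552, with the single remaining young library assumed to vary like the others). Wnt5b, a ligand known mostly for beta-catenin-independent signalling (chromosome 6, 119432531 to 119544347, minus strand), measured 4.22, 4.25 and 4.89 FPKM against 5.46, 5.58 and 5.46 FPKM. Every aged value was above every young value, a rise of 1.23-fold (0.25 ± 0.06 SE in log2, adjusted p = 0.00928 by limma). Wnt10a, a close relative of Wnt10b (chromosome 1, 74791516 to 74804179, plus strand), had overlapping groups at 2.94, 2.24 and 1.995 against 2.07, 2.20 and 2.22 FPKM and did not pass the test (limma adjusted p = 0.491). Its highest value belonged to the library with the most kidney transcript, whose part in it was not tested.

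Summed over the 19 ligands, the young libraries held 26.6, 26.7 and 25.8 FPKM and the aged ones 24.6, 25.5 and 23.0 FPKM. All 3 aged totals lay below all 3 young totals, at 0.924 times the young mean, and the make-up of the total shifted as well. Wnt10b took 71.8% ± 1.85 of the ligand total in the young libraries and 63.4% ± 1.99 in the aged ones. The share of Wnt5b was 16.9% ± 1.78 and then 22.6% ± 1.0, with no overlap between groups. No test was run on these shares.

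**Figure D2:**
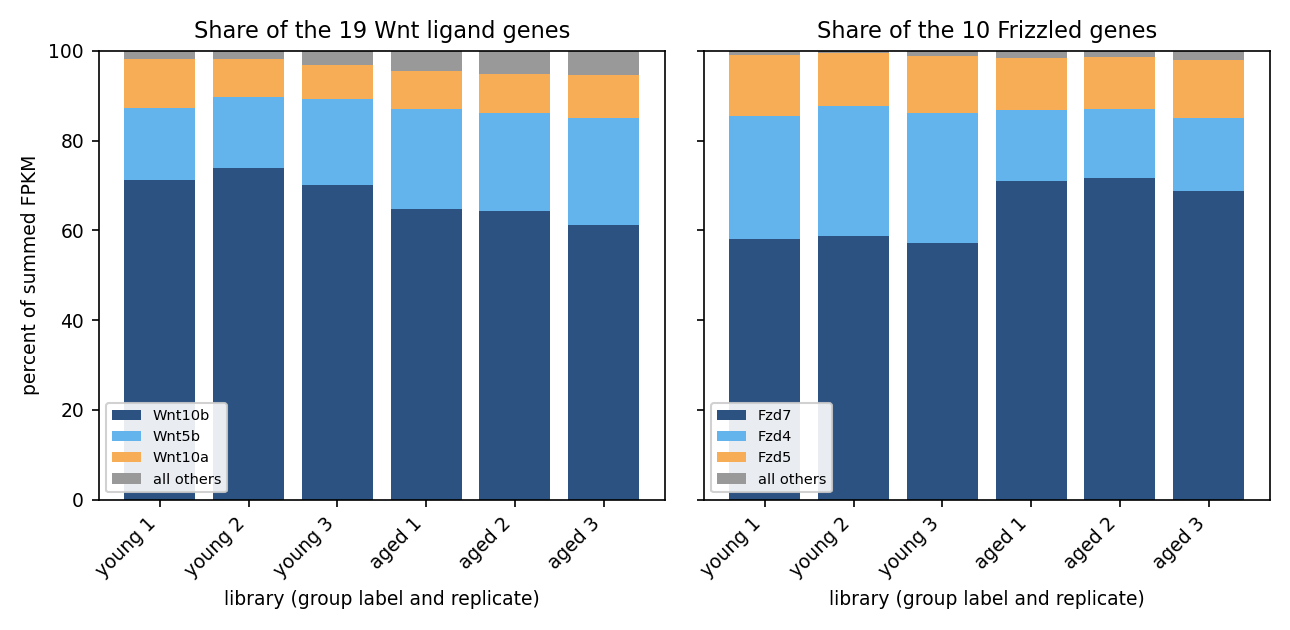
Share of each gene in the summed FPKM of the 19 Wnt ligand genes (left) and of the 10 Frizzled genes (right), as stacked bars for each library. Wnt10b falls from between 70.2% and 73.8% to between 61.2% and 64.8% of the ligands, and Fzd4 from between 27.4% and 29.0% to between 15.5% and 16.3% of the Frizzled receptors.

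Several ligand genes lie next to each other in the genome, and Wnt10b and Wnt10a had neighbours with few reads. Wnt1, the founding ligand of the family, is 11706 bases from Wnt10b on the opposite strand with no gene of the table between them, and it had 6 reads over the 6 libraries where Wnt10b had 6035. Wnt6 is 6193 bases from Wnt10a on the same strand and had 18 reads, against 580 for Wnt10a. In the remaining neighbouring pairs both genes were low: Wnt3a and Wnt9a had 2 and 21 reads, and Wnt9b and Wnt3 had 0 and 5.

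Promoters are shown for the ligands and receptors that changed and for which the RefSeq table (GRCm38.p6) holds a window, from 250 bases before to 50 bases after an annotated start. The table matched 31 of the 46 members with 40 windows. The windows were searched on both strands for CTTTGAT and CTTTGAA, short words bound by TCF/LEF factors that differ in their last letter. Either word occurred in 8.65% of all 32851 windows and in 3 of the 40 windows of the members (7.5%), those of Wnt5b, Wnt11 and Dkk1. A match is a description and not a shown site, and a window without one says only that these letters are not in it. Capitals mark matches in the sequences, which run 5′ to 3′ along the gene's strand. Wnt5b has 3 annotated starts, and the window shown is the one with a match, at position 180. The table of values does not separate the starts.
Wnt10b (chr15:98778101-98778400, minus strand): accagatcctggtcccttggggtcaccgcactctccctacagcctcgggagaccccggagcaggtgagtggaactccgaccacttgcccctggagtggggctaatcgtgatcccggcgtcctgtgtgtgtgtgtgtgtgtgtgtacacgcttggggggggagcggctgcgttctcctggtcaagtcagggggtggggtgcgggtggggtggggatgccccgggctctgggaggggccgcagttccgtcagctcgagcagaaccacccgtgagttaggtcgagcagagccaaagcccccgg
Wnt5b (chr6:119449337-119449636, minus strand): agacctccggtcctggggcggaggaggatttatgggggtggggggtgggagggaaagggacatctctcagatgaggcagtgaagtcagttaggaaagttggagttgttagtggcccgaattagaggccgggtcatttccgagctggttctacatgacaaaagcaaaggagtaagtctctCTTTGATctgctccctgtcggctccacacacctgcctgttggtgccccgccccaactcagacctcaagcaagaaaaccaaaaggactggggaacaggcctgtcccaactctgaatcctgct
Fzd7 (chr1:59481897-59482196, plus strand): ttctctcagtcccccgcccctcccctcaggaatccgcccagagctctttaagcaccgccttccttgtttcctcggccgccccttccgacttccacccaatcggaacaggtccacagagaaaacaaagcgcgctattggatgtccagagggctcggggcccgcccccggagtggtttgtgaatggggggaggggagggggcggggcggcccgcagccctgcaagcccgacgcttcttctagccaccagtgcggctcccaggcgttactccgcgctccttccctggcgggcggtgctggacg
Fzd4 (chr7:89404116-89404415, plus strand): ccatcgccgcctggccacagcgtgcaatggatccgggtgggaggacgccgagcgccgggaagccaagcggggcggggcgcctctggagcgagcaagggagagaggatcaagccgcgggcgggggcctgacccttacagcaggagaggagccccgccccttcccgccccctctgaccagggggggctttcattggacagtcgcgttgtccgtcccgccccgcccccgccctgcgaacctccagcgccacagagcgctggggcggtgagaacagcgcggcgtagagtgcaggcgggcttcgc
The Fzd4 window holds 32 CpG dinucleotides, the Fzd7 window 24 and the Wnt10b window 18, against a median of 7 over all windows. The Wnt5b window shown holds 7, and the other windows of that gene hold 47, at its outermost start, and 4. The medians were 33 over the windows of tested members and 25 over those of untested members.

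The Frizzled receptors moved apart, Fzd4 falling and Fzd7 rising. Fzd4, which also serves as the receptor for norrin in blood vessels (chromosome 7, 89404355 to 89413134, plus strand), measured 5.27, 5.43 and 5.13 FPKM in the young libraries and 2.74, 2.69 and 3.03 FPKM in the aged ones. The groups were far apart, 1.87-fold (-0.72 ± 0.06 SE in log2, adjusted p = 6.57e-05 by limma), and 83.6% of all tested genes differed by a smaller ratio. Fzd7, a receptor prominent in stem cells and many tumours (chromosome 1, 59482424 to 59486955, plus strand), measured 11.2, 11.0 and 10.1 against 12.4, 12.5 and 12.8 FPKM. It rose 1.17-fold without overlap (0.20 ± 0.05 SE in log2, adjusted p = 0.00717 by limma), a call not reached without young replicates 1 and 3 (limma adjusted p = 0.0634). Fzd5 (chromosome 1, 64730558 to 64737751, minus strand) lay at 2.62, 2.23 and 2.23 against 2.04, 2.004 and 2.42 FPKM, with overlapping groups and no call (limma adjusted p = 0.377).

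The ratio of Fzd7 to Fzd4 was 2.12, 2.03 and 1.97 in the young libraries and 4.52, 4.63 and 4.22 in the aged ones, so that the balance between these receptors shifted by more than the spread within either group. The sum over all 10 Frizzled genes was 19.3, 18.8 and 17.7 FPKM and then 17.4, 17.4 and 18.6 FPKM, with overlapping groups. Fzd7 accounted for 58.0% ± 0.709 of that sum in the young libraries and 70.5% ± 1.54 in the aged ones.

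Both co-receptors fell, and by similar factors. Lrp5 (chromosome 19, 3584828 to 3686564, minus strand) measured 19.03, 18.1 and 17.8 FPKM in the young libraries and 9.97, 10.05 and 10.8 FPKM in the aged ones. This 1.79-fold difference (-0.78 ± 0.04 SE in log2, adjusted p = 1.97e-05 by limma) rested on 14379 reads and exceeded the ratio of 81.5% of tested genes. Lrp6 (chromosome 6, 134446476 to 134566965, minus strand) measured 5.74, 6.07 and 5.48 against 3.32, 3.21 and 3.74 FPKM, a 1.69-fold difference (-0.61 ± 0.06 SE in log2, adjusted p = 0.000243 by limma). Neither gene's groups overlapped, and together the pair summed to 24.8, 24.2 and 23.3 FPKM in young and 13.3, 13.3 and 14.5 FPKM in aged libraries. Lrp5 was the more abundant of the pair in all 6 libraries, at 3.18 ± 0.179 times Lrp6 in the young libraries and 3.01 ± 0.125 times in the aged ones, where the groups overlapped.

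**Figure D3:**
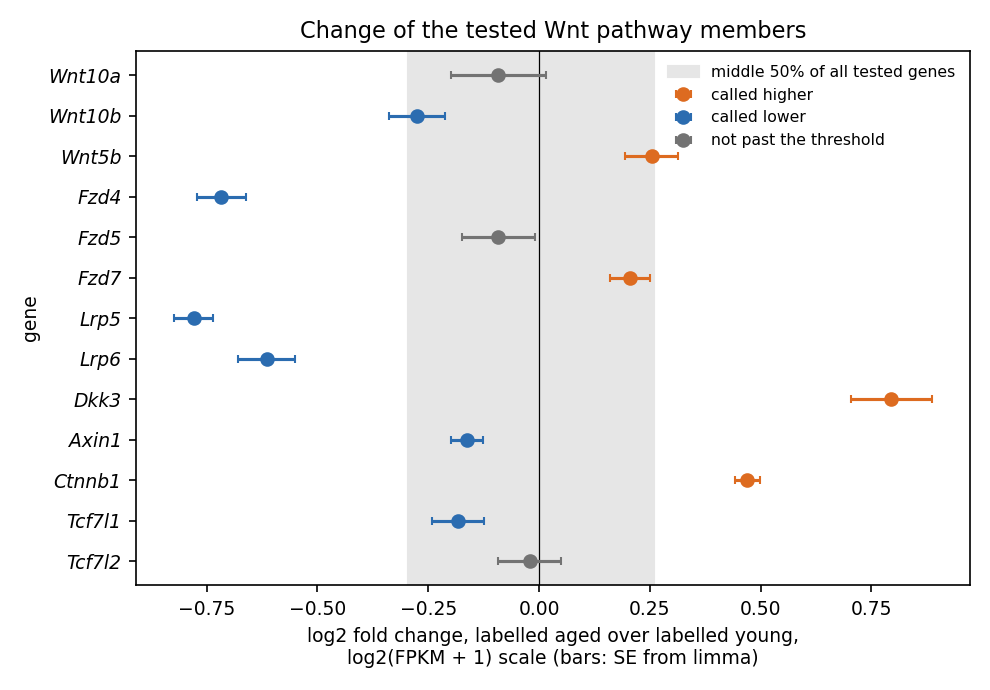
Log2 fold change of the 13 tested members, labelled aged over labelled young on the log2(FPKM + 1) scale, with standard errors from limma. The grey band spans the middle 50% of all tested genes, and Dkk3, Ctnnb1, Lrp5, Fzd4 and Lrp6 lie outside it.

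Dkk3 was the only antagonist above the filter, and it had the largest ratio among the tested members. Dkk3, a divergent Dickkopf protein whose link to the Lrp co-receptors is less clear than that of Dkk1 (chromosome 7, 112116017 to 112159057, minus strand), measured 0.277, 0.257 and 0.414 FPKM in the young libraries and 1.19, 1.39 and 1.26 FPKM in the aged ones. It rose 4.06-fold (0.80 ± 0.09 SE in log2, adjusted p = 0.00036 by limma), with 55 reads against 221. The gene reached the filter only through the aged libraries, where it is high. Its level was below those of the tested ligands and Frizzled receptors in every library and, in the aged libraries, above those of the untested ones. The log2(FPKM + 1) scale understates its change (1.75 in log2 with a pseudocount of 0.1 in place of 1).

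The other 7 antagonists, which sequester ligands or block the co-receptors, were near 0. Sfrp4 had 40 reads over the 6 libraries, Sfrp1 23, Dkk2 9, Sfrp5 4, Dkk4 3, Sfrp2 1 and Dkk1 0. None exceeded 0.167 FPKM in any library. The 4 reads of Sfrp5 all came from aged replicate 1.

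Among transcripts of cytoplasmic components, that of beta-catenin rose and that of its scaffold Axin1 fell slightly. Ctnnb1 (chromosome 9, 120929216 to 120960507, plus strand) measured 85.0, 83.6 and 85.2 FPKM in the young libraries and 115, 118 and 119 FPKM in the aged ones, a rise of 1.39-fold with widely separated groups (0.47 ± 0.03 SE in log2, adjusted p = 2.61e-05 by limma). Of its exon bases, 759 are shared with Ulk4 on the opposite strand, a gene at no more than 1.62 FPKM. Axin1 (chromosome 17, 26138688 to 26195811, plus strand), the scaffold of the destruction complex, measured 19.2, 18.8 and 18.4 against 16.4, 17.3 and 16.5 FPKM. It fell 1.13-fold without overlap (-0.16 ± 0.04 SE in log2, adjusted p = 0.00701 by limma), and the call was not reached without young replicates 1 and 3 (limma adjusted p = 0.0813) or after median centring (limma adjusted p = 0.0544). The ratio of Ctnnb1 to Axin1 was 4.49 ± 0.115 in the young libraries and 7.04 ± 0.186 in the aged ones. Transcript levels say nothing of how much beta-catenin protein is kept or destroyed, the step at which the pathway acts.

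Of the transcription factors, Tcf7l1 was the most abundant. Tcf7l1, often a repressor in the absence of Wnt (chromosome 6, 72626378 to 72789254, minus strand), measured 5.18, 5.64 and 5.67 FPKM in the young libraries and 4.54, 4.58 and 5.06 FPKM in the aged ones. The groups did not overlap, although the highest aged and the lowest young value nearly met. It fell 1.16-fold (-0.18 ± 0.06 SE in log2, adjusted p = 0.0314 by limma), the largest adjusted p among the called members. The call was not reached without young replicates 1 and 3 (limma adjusted p = 0.117). Leaving out aged replicate 1, aged replicate 2, young replicate 2 or young replicate 3 alone ended it too, as did median centring (range of limma adjusted p over all alternatives 0.0181 to 0.128). Tcf7l2 (chromosome 19, 55741810 to 55933654, plus strand) lay at 1.59, 1.44 and 1.43 against 1.42, 1.37 and 1.56 FPKM, with overlapping groups and no call (limma adjusted p = 0.823). Tcf7 had 66 young and 55 aged reads and was above 0.5 FPKM in 1 library only. Lef1 had 9 reads in all.

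The 33 members below the filter were low throughout. Wnt2, Wnt9b, Fzd8, Fzd10 and Dkk1 had no read in any library. A count of 0 allows up to 3 reads per library, or 0.173 to 0.177 FPKM on a gene of 1 kilobase. Wnt2, a ligand of lung mesenchyme in development, and Wnt5a, a ligand of lung fibroblasts with 4 reads here, were thus not detectable or nearly so at this depth. The highest values below the filter were those of Tcf7 (0.549 FPKM) and Wnt2b (0.428 FPKM).

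Reads were recovered for 28 of these 33 members, and 23 of the 28 had more reads in the aged libraries, 4 had fewer and 1 had as many. That is 82.1%, where 69.4% of the protein-coding genes below the filter with a read, 4987 of 7186, also had more reads in the aged libraries. The libraries labelled aged had reads on 26703 to 26925 genes and the young ones on 24074 to 24363, and the part of this difference in the low members was not tested. Wnt7b, a ligand of lung epithelium, had 19 young and 59 aged reads, so that the rate was 3.14 times as high (exact 95% counting limits 1.84 and 5.57). The neural ligand Wnt8b went from 9 to 24 reads and Wnt8a from 6 to 24. Wnt9a had 3 and 18 reads, a ratio of 6.06 with an interval of 1.77 to 32.1. Counting intervals leave out the spread between libraries, and for the young reads of these ligands they are wide. The other low ligands were Wnt7a with 4 young and 13 aged reads, Wnt4 with 7 in each group, Wnt11 with 1 and 3, and Wnt16 with 1 aged read.

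Fzd3, a receptor of axon guidance and planar polarity, had no read in the young group and 21 in the aged group (exact 95% lower counting limit of the ratio 5.26). Fzd6, its closest relative, had 12 and 34 reads, a ratio of 2.86 with an interval of 1.45 to 6.07. Fzd1 had 16 and 17 reads, Fzd2 had 8 and 7, and Fzd9 had 1 in all. Wnt2b was the only low member whose interval lay below 1, with 55 and 33 reads (ratio 0.606, interval 0.381 to 0.950), and 31 of the 55 came from young replicate 3, which is among the libraries with kidney transcripts. Without a filter limma called 2 of the low members, Wnt7b (adjusted p = 0.0071) and Wnt6 (adjusted p = 0.0395), both higher in the aged libraries, in a fit that called 27.7% of 33676 genes. Wnt6 had only 5 young and 13 aged reads, and its counting interval for the ratio, 0.878 to 9.41, includes 1.

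**Figure D4:**
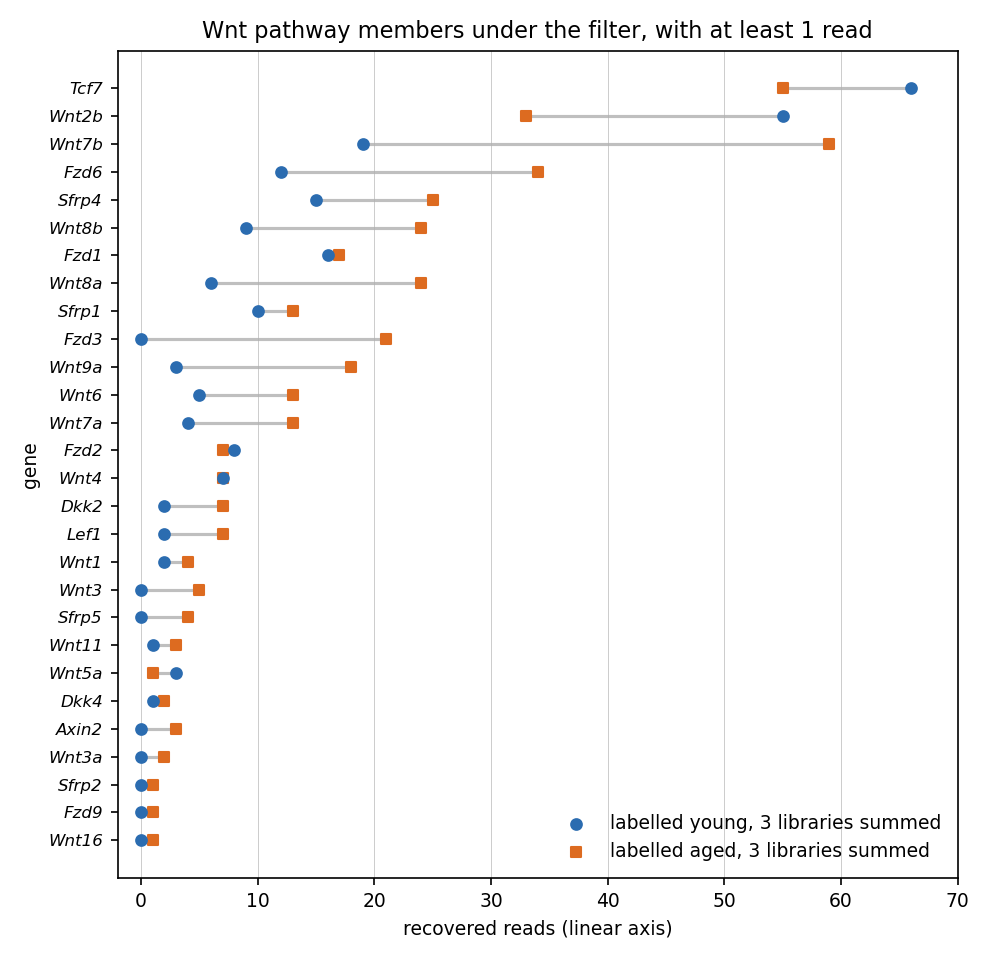
Recovered reads of the 28 untested members with at least 1 read, summed over the 3 libraries of each group (linear axis). Most squares, labelled aged, lie to the right of the circles, labelled young, while Tcf7, Wnt2b, Fzd2 and Wnt5a go the other way.

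The remaining genes of the pathway were followed in 8 lists with 149 genes between them, of which 89 were tested. Among these 89, 21 were called higher and 41 lower, 69.7% in all against the 60% of all tested genes. Calls without young replicates 1 and 3 are not counted for the 89 together, as the 1 young library left gives no spread of its own. In the list of transducers and the destruction complex, 15 of 24 tested genes fell, 2 rose and 7 did not pass, with a median log2 fold change of -0.25. The count of rises was 0 to 2 when 1 library was left out, with 0 without aged replicate 1 or young replicate 3, 1 without aged replicate 3, young replicate 1 or young replicate 2, and 14 to 16 genes called lower. Apc2, a relative of the scaffold Apc, went from 5.81 ± 0.227 to 3.12 ± 0.187 FPKM (limma adjusted p = 6.36e-05). Nkd1, a feedback inhibitor that binds Dishevelled, went from 2.25 ± 0.0221 to 0.838 ± 0.0705 FPKM (limma adjusted p = 8.49e-05). The phosphatase subunits Ppp2r1a and Ppp2ca fell 1.33-fold and 1.31-fold. Calls in this list were thus mostly in the lower direction. Over all tested genes, 32.3% were called lower and 27.7% higher. That balance turned after median centring, to 4988 genes higher and 4026 lower, where the 8 lists together had 26 higher and 34 lower.

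Nuclear cofactors of beta-catenin had 9 of 17 tested genes lower, 3 higher and 5 not past the threshold (median -0.22). That is 70.6% called, against 60% of all tested genes (32.3% lower and 27.7% higher, median -0.03). Tle2, a Groucho-type corepressor, fell 4.79-fold, from 2.64 ± 0.11 to 0.551 ± 0.0828 FPKM (limma adjusted p = 2.55e-05), the largest ratio among the 89 pathway genes tested. Bcl9, which links beta-catenin to Pygopus, fell from 3.53 ± 0.1 to 1.66 ± 0.127 FPKM, and Tle3 fell 1.31-fold, while the helicase gene Ruvbl1 rose 1.28-fold.

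Of the R-spondin axis, which protects Frizzled receptors from ubiquitin ligases, 3 of 9 genes were tested. The receptor gene Lgr6 rose without overlap, from 5.04, 5.28 and 4.72 FPKM to 15.4, 15.0 and 12.8 FPKM, a 2.87-fold change (1.35 ± 0.07 SE in log2, adjusted p = 1.78e-05 by limma). Its relative Lgr4 fell from 6.09 ± 0.503 to 4.52 ± 0.314 FPKM (limma adjusted p = 0.00411), and the ligase Rnf43 from 3.39 ± 0.208 to 2.79 ± 0.268 FPKM (limma adjusted p = 0.04). The Rnf43 call was lost in 11 of 20 alternatives, among them the fits without young replicates 1 and 3 (limma adjusted p = 0.307), without any of the 3 young libraries alone, and without aged replicate 2 or aged replicate 3. The R-spondin ligands themselves were near 0, with 20 reads for Rspo2 and 5 or fewer for each of the others.

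For ligand secretion, Wls, the carrier that takes Wnt proteins to the surface, lay at 33.7 ± 0.654 and 32.9 ± 2.02 FPKM and was not called (limma adjusted p = 0.571). Porcn, the enzyme that adds the lipid, fell from 2.73 ± 0.35 to 1.90 ± 0.0866 FPKM (limma adjusted p = 0.00946). Among 14 other antagonists, 3 were tested and all 3 were called lower, as were 32.3% of all tested genes. Kremen1, a partner of Dkk1 at the Lrp co-receptors, went from 13.1, 12.9 and 13.0 FPKM to 7.22, 7.85 and 7.498 FPKM (-0.72 ± 0.04 SE in log2, adjusted p = 1.94e-05 by limma). Igfbp4 and Apcdd1 fell 1.13-fold each. Both calls were lost after median centring, and leaving out aged replicate 1 or young replicate 2 ended them too. The Apcdd1 call was lost in 10 of 20 alternatives, among them those without young replicates 1 and 3 (limma adjusted p = 0.131), without aged replicate 2 and without young replicate 3.

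Alternative receptors and planar polarity genes had 55% called, against 60% of all tested genes. In the test they numbered 20, of which 8 fell, 3 rose and 9 were not called (median -0.09). Without young replicates 1 and 3, 7 of them were called in place of 11, in a fit that called 41% of all tested genes. Ryk, a Wnt receptor with an inactive kinase domain, fell 1.29-fold, and the polarity genes Prickle2 and Prickle3 went opposite ways, 1.79-fold up and 1.57-fold down. Camk2d, a calcium-dependent kinase, rose 1.404-fold. Ror1 and Ror2, the usual receptors of Wnt5a, had 26 and 11 reads. Cadherin and junction genes had 3 of 8 higher, 1 lower and 4 not past the threshold, or 50% called, against the same 60% with all libraries. Plekha7 and Pkp3 reached the filter only through the aged libraries, where they are high. Pkp4 and Ctnna1, which encodes the alpha-catenin that ties beta-catenin to actin, each rose 1.15-fold, Plekha7 rose 2.20-fold at under 1 FPKM, and Pkp2 fell 1.34-fold. The calls of Pkp4, Plekha7 and Ctnna1 were not reached without young replicates 1 and 3 (limma adjusted p = 0.0706, 0.0761 and 0.0821), and that of Ctnna1 also without young replicate 2 or young replicate 3. Cdh1, E-cadherin, had 54 reads.

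**Figure D5:**
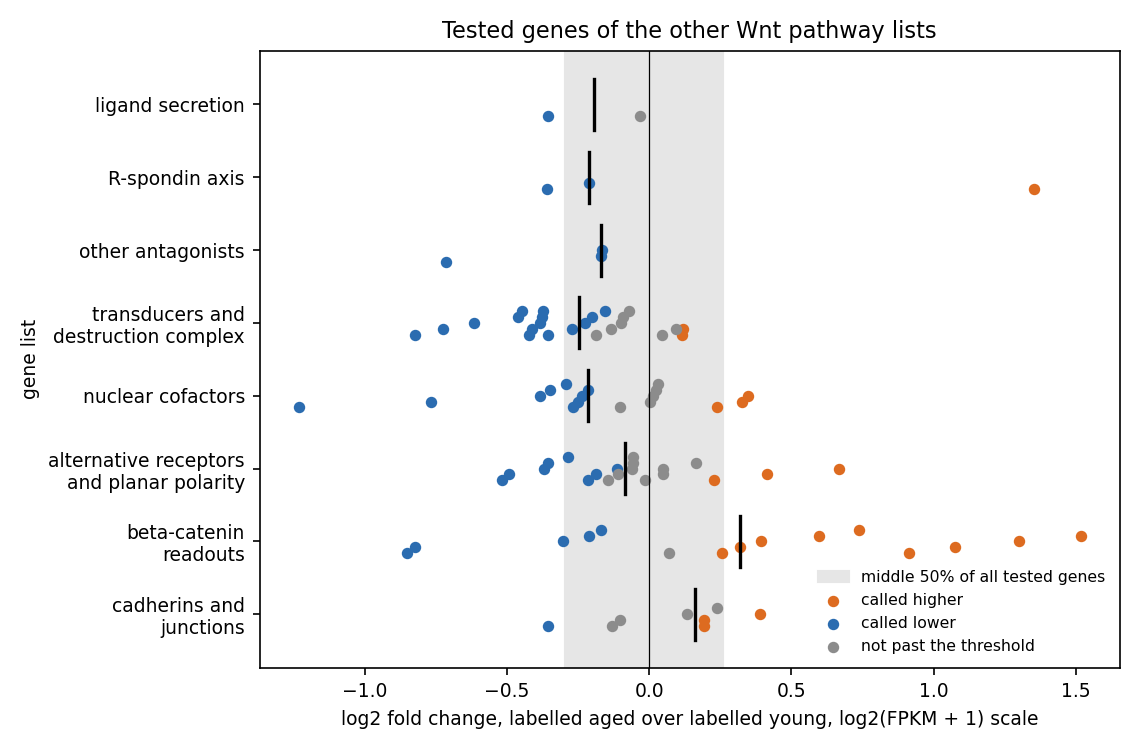
Log2 fold change on the log2(FPKM + 1) scale, labelled aged over labelled young, of each tested gene in the 8 other pathway lists, coloured by limma call, with a black bar at each list's median and a grey band for the middle 50% of all tested genes. The readout list has its median at 0.32 and the destruction complex list at -0.25.

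Readouts of beta-catenin signalling did not move as a block. Axin2, the readout most widely used across tissues, had no young read and 3 aged reads, Sp5 had 0 reads in all and Lgr5 had 23. Of the 32 listed readouts, 15 were tested, of which 9 rose, 5 fell and 1 did not pass (median 0.32). Over all tested genes, 27.7% were called higher and 32.3% lower (median -0.03). The genes that fell were Myc, Nkd1, Vegfa, Rnf43 and Apcdd1, and the calls of Rnf43 and Apcdd1 were lost in 11 and 10 of 20 alternatives. The count that fell was 3 without aged replicate 2, young replicate 2 or young replicate 3 and 4 without any other single library, and it was 3 without young replicates 1 and 3. Ccnd1, cyclin D1, went from 58.2, 58.4 and 56.2 FPKM to 169, 167 and 164 FPKM, a rise of 2.89-fold (1.52 ± 0.03 SE in log2, adjusted p = 1.11e-06 by limma). Cd44, an adhesion receptor, rose 1.91-fold and Fosl1, an AP-1 subunit, 2.53-fold. Myc, in contrast, fell from 49.3 ± 1.83 to 39.8 ± 1.53 FPKM (limma adjusted p = 0.000899), Nkd1 fell as given above, and Vegfa, a growth factor of blood vessels, fell 1.82-fold. The promoter of Axin2 is shown because its gene was nearly silent. The window below has no match to either word and holds 31 CpG dinucleotides.
Axin2 (chr11:108920099-108920398, plus strand): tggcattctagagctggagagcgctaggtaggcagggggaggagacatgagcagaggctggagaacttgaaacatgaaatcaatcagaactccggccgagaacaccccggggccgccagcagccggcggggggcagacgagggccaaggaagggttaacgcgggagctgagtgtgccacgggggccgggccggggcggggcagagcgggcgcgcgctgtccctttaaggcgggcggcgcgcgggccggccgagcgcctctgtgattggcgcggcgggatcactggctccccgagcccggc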

How the data were processed

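FPKM as deposited by the authors covered 54532 genes, with 6 libraries in 1 table. Paired reads were aligned with HISAT2 2.0.5, per the labels' protocols, and mm10 is the build named in the submitters' processing notes. The counting program, annotation and strand setting were not given in the sources used here. Positions are those of the table. For 44 of the 46 members they equal those of GENCODE vM21 (GRCm38). Gene length (in bases, in the deposited table) times FPKM gave whole multiples of 1 step for 100% of values above 0 (tolerance 0.01), so whole reads were recovered.

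Genes with at least 0.5 FPKM in at least 3 libraries were tested as log2(FPKM + 1) with limma 3.58.1 in R 4.3.3 (model on group, mean-variance trend, 2-sided), with Benjamini-Hochberg adjustment over all 15197 tested genes and a threshold of 0.05. Folds of single genes are ratios of mean FPKM. Ratios of reads carry exact 95% intervals. Replicates differed by more than sampling noise (chi-square per degree of freedom 2.25 to 4.93 over genes of 50 or more reads over both libraries). Named pathway genes are the up to 4 with the smallest p in each list, and fixed readouts; others named were chosen after their values were seen. The members and lists were chosen with earlier results of these data known. Of 156 list entries, 1 symbol (Tle5) found no row. Alternatives covered pseudocount, filter, scaling, moderation, voom on recovered reads, gene class, replicate block, left-out libraries and threshold; leaving out both libraries with kidney transcripts was added after the data were seen. Python 3.11.15 was used for other steps. The fit was tested on simulated data.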

Additional observations from a re-analysis of the deposited data

How the results depend on the processing

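Lrp5, Lrp6, Fzd4, Ctnnb1, Wnt5b and Dkk3 were called in the same direction under every alternative that tested them (20 each, and 19 for Dkk3, which is under the filter on a mean of at least 1 FPKM). Dkk3 passed the main filter only through the aged libraries, where it is high. Wnt10b and Fzd7 lost the call only without young replicates 1 and 3, Axin1 there and with median centring, and Tcf7l1 in 10 alternatives. No called member changed sign. Without young replicates 1 and 3, 3 members were called lower (6 with all libraries) and 3 higher. The 149 pathway genes then had 13 called higher, the alternative receptor list 7 called in all and the junction list 1. The other antagonists had 1 gene called, in place of 3, with median centring, without aged replicate 1, without young replicate 2 and at an adjusted p under 0.01. The junction list had 7 called without a filter, in a fit that called 27.7% of 33676 genes, and 2 at an adjusted p under 0.01. At that stricter threshold, 3237 of all tested genes were called higher and 3755 lower. Leaving out each library in turn gave 3764 to 4030 genes higher and 4363 to 4678 lower, 4 members higher and 5 to 6 lower, and 18 to 21 pathway genes higher and 35 to 40 lower. The other antagonists had 1 to 3 called under the same omissions. With the replicate number as a block, 4 members were higher and 6 lower, and 3927 genes were higher and 4514 lower. Same-numbered libraries did not deviate together (correlations of -0.01 to 0.02 across genes), so no pairing by number was seen. With 3 libraries per group, these values cannot exclude one. The cause of each lost call was not tested, beyond the fewer libraries in the fit. Depth limits the 33 members below the filter, 18 of which had 10 reads or fewer over all libraries.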
